A study of Mus musculus with 48 samples.

Results

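The comparison described here was of skin from C3H/HeJ mice given jak12i with skin from mice given phosphate-buffered saline by gavage, both with 12/13 weeks of treatment in the labels and week 13 in the array titles. It took 6 of the 48 arrays of the series, chosen by title: 3 of jak12i and 3 of PBS gavage, each described by the submitters as a biological replicate. C3H/HeJ is an inbred mouse strain prone to alopecia areata, an autoimmune hair loss, and the study is known to have grafted skin from affected mice and then treated the recipients to prevent disease. The labels name jak12i without a drug name; from knowledge of the study it is ruxolitinib, a small-molecule inhibitor of the kinases JAK1 and JAK2, and PBS gavage is its vehicle, although the labels do not tie the agent to a route. They give no dose, age or sex. Other groups used below were jak12i and PBS gavage at week 6 with 5 arrays each, and at week 13 jak3i, PBS pump, il15rb and PBS ip with 3 arrays each. From the same knowledge, jak3i is tofacitinib, a JAK inhibitor given by pump, and il15rb is an antibody to the interleukin-15 receptor beta chain given by intraperitoneal injection.

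In alopecia areata, CD8 T cells that carry the NKG2D receptor gather around growing hair follicles. They release interferon gamma, which signals through JAK1 and JAK2 and raises MHC and chemokine genes in follicle cells, while interleukin-15, which signals through JAK1 and JAK3, sustains the T cells. The growing follicle makes the hair shaft and its inner root sheath from dedicated keratins, whereas a resting follicle is reduced to its stem cell region, the bulge, and lies in a skin with a different fat layer.

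Values are the submitters' log2 signals, with 1 probe set taken per gene, and a change is the jak12i mean minus the PBS gavage mean on that scale. Of 13648 genes tested, 2986 passed an adjusted p of 0.05 in limma, 1580 of them higher in jak12i (11.6%) and 1406 lower (10.3%), with a median change over all genes of 0.02. More than 2-fold changes were found in 228 genes that were higher and 383 that were lower. Each ± below is a standard error from a spread per gene shared over 47 arrays in 13 groups. In a fit of only the 2 groups compared, 1906 genes passed. Correlations between arrays over the genes tested ran from 0.974 to 0.983 within jak12i, from 0.974 to 0.984 within PBS gavage, and from 0.895 to 0.946 between them. PBS gavage replicate 3 carried weight: without it 1448 genes passed, of which 1426 were among the 2986 and none had the opposite sign. Where a group mean lay below 5.38, the highest lower quartile of the week 13 arrays, the signal is near background and the fold is given as at least the stated value. In these whole-skin samples, fewer cells of a type and less RNA per cell cannot be told apart.

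The skin markers were present in all 6 arrays. Krt10, a keratin of the upper epidermis, had means that differed by -0.01 (adjusted p = 0.965), and Krt5, of the basal layer, by -0.15 (adjusted p = 0.429). Krt14, the partner of Krt5, was lower in jak12i by 0.52 ± 0.13 (SE, adjusted p = 0.00349), and Krt1, the partner of Krt10, was also lower, with a change of -0.70 (adjusted p = 0.00815). Col1a1, a chain of the main dermal collagen, had signals of 10.37, 10.77 and 10.5 in jak12i and 11.84, 11.68 and 10.6 in PBS gavage and did not pass (adjusted p = 0.22).

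**Figure D1:**
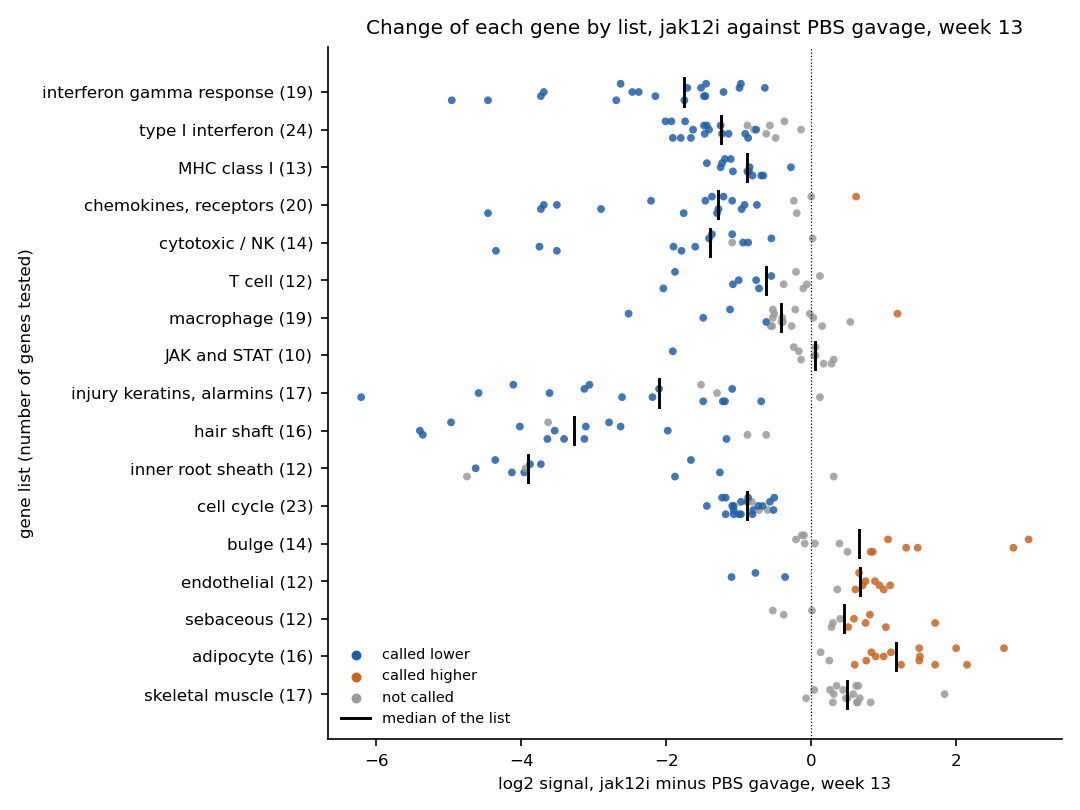
Log2 change of each gene (x axis, jak12i minus PBS gavage at week 13) in 17 gene lists (rows), 1 point a gene: blue for genes called lower, orange for genes called higher, grey for genes not called, and a black bar at the list median. Interferon and cytotoxic lists lie mostly left of 0, the adipocyte and bulge lists lie mostly right of it, and the inner root sheath median is -3.91.

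Genes of cytotoxic lymphocytes were lower in jak12i. Of 20 such genes listed, 14 passed the filter on low signals, and 12 of these 14 fell and none rose, with a median change of -1.39. Gzmb encodes granzyme B, a protease that killer cells inject into their targets. Its signal was 6.59, 6.57 and 6.30 in jak12i replicates 1 to 3 and 10.10, 9.63 and 10.97 in PBS gavage replicates 1 to 3. Every PBS gavage array lay more than 3 log2 units above every jak12i array, and the change was -3.75 ± 0.40 (SE, n = 3 and 3; 13.4-fold lower, adjusted p = 5.66e-08). Gzma, granzyme A, read 5.23, 5.63 and 5.18 in jak12i against 9.92, 9.10 and 10.07 in PBS gavage. Its 3 jak12i signals lay near background, and its change of -4.35 ± 0.46 was at least 20.4-fold (adjusted p = 5.66e-08). Ccl5, a chemokine that killer and memory T cells make, read 6.84, 7.66 and 7.47 against 10.8, 10.68 and 11.04, again without overlap, a change of -3.51 ± 0.51 (11.4-fold lower, adjusted p = 5.84e-06).

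Killer cell receptors followed the same direction. Klrk1, which encodes NKG2D, read 5.22, 5.53 and 6.02 in jak12i and 7.36, 7.01 and 7.77 in PBS gavage. The groups were separate, with a change of -1.79 ± 0.25 (3.46-fold lower, adjusted p = 4.54e-06). Its adaptor Hcst fell by 1.41 (adjusted p = 2.66e-06) and Klrd1, the CD94 receptor chain, fell by 1.6 ± 0.28 (adjusted p = 8.15e-05). Nkg7, a protein of cytotoxic granules, read 7.77, 8.43 and 8.54 against 9.45, 9.65 and 9.75, a change of -1.37 ± 0.29 (2.59-fold lower, adjusted p = 0.000803). Prf1, the pore-forming perforin, read 7.02, 7.45 and 7.3 against 7.82, 7.42 and 8.19. Its groups overlapped, its change of -0.55 ± 0.20 passed narrowly (adjusted p = 0.0469), and without any 1 of 4 arrays it did not pass, with adjusted p values up to 0.308 without PBS gavage replicate 3. Klrg1 had a change of 0.02 (adjusted p = 0.953) and Gzmc one of -1.09 (adjusted p = 0.101). The other 6 listed genes, Gzmk, Fasl, Eomes, Tbx21, Ncr1 and Crtam, did not pass the filter.

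Among general T cell genes, 7 of 12 tested were lower and none higher, with a median change of -0.63. Cd8a, the CD8 alpha chain, read 7.41, 7.05 and 6.90 in jak12i and 8.62, 9.13 and 9.24 in PBS gavage, and Cd8b1, the beta chain, read 5.14, 5.53 and 5.50 against 7.30, 7.52 and 7.47. Neither gene overlapped between groups: Cd8a changed by -1.88 ± 0.20 (3.68-fold lower) and Cd8b1 by -2.04 ± 0.22 (4.11-fold lower), both with an adjusted p of 5.66e-08. The other 4 probe sets of Cd8a gave changes between -3.82 and 0.02, so its size depends on the probe set. Cd3d, a chain of the T cell receptor complex, read 7.37, 8.05 and 8.29 against 8.75, 9.03 and 9.19 and fell by 1.08 (adjusted p = 0.00163), whereas Cd3e of the same complex had a change of -0.11 (adjusted p = 0.614). Cd4, the helper T cell coreceptor, read 7.04, 7.3 and 7.3 against 7.4, 7.3 and 7.12. Its groups overlapped, with a change of -0.06 (adjusted p = 0.745).

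Genes of T cells that settle in skin split. Cxcr6, a chemokine receptor of resident memory T cells, read 6.88, 7.27 and 7.42 in jak12i and 9.4, 9.53 and 9.27 in PBS gavage, a change of -2.21 ± 0.34 with no overlap (4.63-fold lower, adjusted p = 1.51e-05). Itgae, the CD103 integrin that holds such cells in the epidermis, fell by 1.37 ± 0.27 (adjusted p = 0.000406). Trgv4, a gamma delta T cell receptor segment, and Cd7 had changes of 0.44 and 0.35 that did not pass, and 3 of the 7 genes tested in this list were lower. Of 9 checkpoint and regulatory genes, 4 were lower, among them Cd274, which encodes PD-L1 (fell by 1.46, adjusted p = 0.00109), and Havcr2, which encodes TIM-3, with a change of -0.85. The exception was Ikzf2, the Helios factor of regulatory T cells, which rose by 0.76 (adjusted p = 0.00109).

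**Figure D2:**
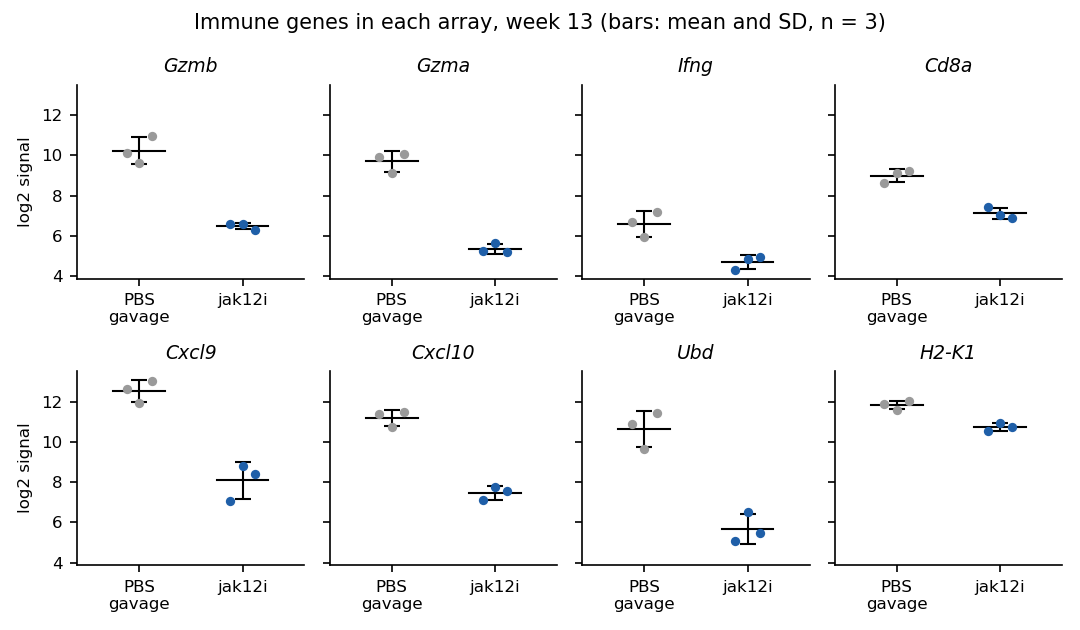
Log2 signal (y axis) of 8 immune genes in each of the 3 jak12i and 3 PBS gavage arrays of week 13, with bars for mean and SD (n = 3). In all 8 panels the jak12i points lie below every PBS gavage point, from Ubd at 5.08 to 6.51 against 9.65 to 11.42 to H2-K1 at 10.53 to 10.95 against 11.59 to 12.02.

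Interferon gamma and its response genes fell together. The cytokine gene Ifng read 4.32, 4.86 and 4.94 in jak12i, near background, and 6.68, 5.93 and 7.19 in PBS gavage, a change of -1.90 ± 0.26 (at least 3.72-fold lower, adjusted p = 2.62e-06). All 19 of 19 tested genes of the interferon gamma response list were called lower, with a median of -1.75, and in all 19 the 3 jak12i arrays lay below the 3 PBS gavage arrays; over all genes tested, 17.7% separated in that way. Interferon gamma acts through a STAT factor that binds the GAS motif, and type I interferons and the IRF factors act through the ISRE motif. Promoter windows from 250 bases before to 50 bases after the gene start (RefSeq, GRCm38.p6) were searched on both strands for GAS written TTCNNNGAA and ISRE written GAAANNGAAA. Shown here are windows of 6 interferon genes measured on the arrays, with matches in capitals.
Irf1 (chr11:53769764-53770063, plus strand, GAS starting 90 bases before the start): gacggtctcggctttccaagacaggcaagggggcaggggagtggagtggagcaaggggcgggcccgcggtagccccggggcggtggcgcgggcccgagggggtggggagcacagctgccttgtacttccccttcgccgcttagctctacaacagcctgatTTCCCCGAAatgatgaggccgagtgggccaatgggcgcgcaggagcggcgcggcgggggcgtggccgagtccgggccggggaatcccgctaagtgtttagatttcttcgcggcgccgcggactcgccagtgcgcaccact
Igtp (chr11:58199306-58199605, plus strand, GAS at 45 and ISRE at 34 bases): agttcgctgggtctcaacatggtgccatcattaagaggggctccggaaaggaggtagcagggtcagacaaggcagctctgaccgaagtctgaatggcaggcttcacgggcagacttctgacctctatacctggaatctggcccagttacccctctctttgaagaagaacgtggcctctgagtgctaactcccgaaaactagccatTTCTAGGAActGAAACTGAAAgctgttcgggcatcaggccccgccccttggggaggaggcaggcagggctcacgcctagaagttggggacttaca
Gbp2 (chr3:142620413-142620712, plus strand, ISRE at 59 bases): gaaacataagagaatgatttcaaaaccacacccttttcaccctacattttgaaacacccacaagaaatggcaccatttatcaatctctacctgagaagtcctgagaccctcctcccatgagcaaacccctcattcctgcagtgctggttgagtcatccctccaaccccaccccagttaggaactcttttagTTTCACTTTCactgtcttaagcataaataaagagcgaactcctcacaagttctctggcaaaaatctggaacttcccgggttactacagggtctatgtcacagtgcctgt
Cxcl10 (chr5:92348840-92349139, minus strand, ISRE at 213 bases): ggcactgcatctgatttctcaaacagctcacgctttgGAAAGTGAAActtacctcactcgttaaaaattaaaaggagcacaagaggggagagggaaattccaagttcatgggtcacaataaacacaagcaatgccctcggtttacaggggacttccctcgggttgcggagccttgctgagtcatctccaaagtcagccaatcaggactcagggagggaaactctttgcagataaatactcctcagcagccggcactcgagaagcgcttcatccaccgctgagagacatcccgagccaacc
Irgm1 (chr11:48871371-48871670, minus strand, overlapping ISRE matches at 30 and 24 bases): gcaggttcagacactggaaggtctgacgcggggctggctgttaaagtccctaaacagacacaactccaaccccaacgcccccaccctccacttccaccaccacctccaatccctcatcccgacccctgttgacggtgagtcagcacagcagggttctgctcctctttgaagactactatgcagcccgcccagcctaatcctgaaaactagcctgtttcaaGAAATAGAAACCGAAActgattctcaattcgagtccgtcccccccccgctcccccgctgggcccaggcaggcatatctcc
Ifit3 (chr19:34583279-34583578, plus strand, ISRE at 156 and 122 bases): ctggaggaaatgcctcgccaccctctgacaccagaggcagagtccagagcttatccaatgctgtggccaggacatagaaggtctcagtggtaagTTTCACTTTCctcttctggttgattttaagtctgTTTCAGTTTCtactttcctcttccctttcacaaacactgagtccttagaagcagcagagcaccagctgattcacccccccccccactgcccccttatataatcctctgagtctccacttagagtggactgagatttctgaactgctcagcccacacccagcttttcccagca

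The first 5 of these genes fell. Irf1, a transcription factor induced by interferon gamma, read 9.44, 9.84 and 9.65 in jak12i and 11, 11.01 and 11.48 in PBS gavage, without overlap, and fell by 1.52 ± 0.23 (adjusted p = 1.18e-05). Igtp, a GTPase that acts on vacuoles holding parasites, read 9.3, 10.39 and 9.6 against 12.35, 12.4 and 12.6, a change of -2.69 ± 0.63 (6.44-fold lower, adjusted p = 0.00221). Irgm1, of the same family, read 8.65, 9.16 and 8.86 against 10.89, 10.89 and 11.36 and fell by 2.15 (adjusted p = 0.00204). Gbp2, a guanylate-binding protein, read 9.35, 9.87 and 9.75 against 11.36, 11.09 and 11.77 and fell by 1.75 (adjusted p = 0.00331). These 4 genes were separate between the groups in every array. Cxcl10, a chemokine that draws T cells carrying CXCR3, read 7.09, 7.77 and 7.56 against 11.36, 10.75 and 11.49. It too was separate, at -3.73 ± 0.47 (13.2-fold lower, adjusted p = 6.85e-07). Ifit3, an antiviral protein, is the exception with its pair of ISRE matches: it read 9.09, 10.06 and 9.56 against 9.95, 10.01 and 11.12, the groups overlapped, and its change of -0.79 did not pass (adjusted p = 0.172).

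Windows were held for 13 of the 19 interferon gamma response genes, with 16 windows in all. Of these, 31.2% held the GAS letters, 50% the ISRE letters and 62.5% either, beside 8.3%, 3.44% and 11.3% of all 32851 promoter windows of the same length. Among genes called lower, 13.2% of windows held either motif, among genes called higher 8.6%, and among genes tested 9.47%. Ubd and Cxcl9, with the lowest changes in the list, held neither in this window. Ubd, which encodes the ubiquitin-like protein FAT10, read 5.08, 6.51 and 5.47 in jak12i and 10.87, 9.65 and 11.42 in PBS gavage. Its groups lay more than 3 log2 units apart, with a change of -4.96 ± 0.53 (31.2-fold lower, adjusted p = 5.66e-08). Cxcl9, the second CXCR3 chemokine, read 7.05, 8.78 and 8.41 against 12.62, 11.95 and 13.03. It was also separate, at -4.46 ± 0.74 (22.0-fold lower, adjusted p = 3.99e-05). The smallest fall of the list was that of Ciita, the MHC class II transactivator, with a change of -0.64.

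The type I interferon list, whose genes partly answer to interferon gamma as well, was lower in 17 of 24 and higher in none, with a median of -1.24. Zbp1, a sensor of viral nucleic acid, read 7.26, 8.33 and 7.65 in jak12i against 9.43, 9.34 and 10.51, and fell by 2.01 ± 0.41 (adjusted p = 0.000498). Bst2, the tetherin that holds budding virus, read 8.23, 8.87 and 8.81 against 9.94, 9.94 and 10.91 and fell by 1.63 ± 0.27 (adjusted p = 4.75e-05). Mx1, an antiviral GTPase, read 6.4, 7.4 and 7.15 against 8.12, 8.21 and 9.07 and fell by 1.48 ± 0.28 (adjusted p = 0.000191). All 3 were separate between groups, with PBS gavage replicate 3 the highest array in each. Ifit2, Mx2, Oasl1, Rsad2, Ifi44l and Cmpk2 had negative changes between -0.88 and -0.14 that did not pass, as did Ifit3 above.

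Antigen presentation by MHC class I was lower throughout: 13 of 13 tested genes fell, with a median of -0.88, and every one was separate between groups. H2-K1, a class I heavy chain, read 10.53, 10.95 and 10.76 in jak12i and 11.86, 11.59 and 12.02 in PBS gavage, a change of -1.08 ± 0.17 (2.11-fold lower, adjusted p = 1.91e-05). Psmb9, an immunoproteasome subunit that cuts peptides for class I, read 10.56, 11.04 and 10.81 against 12.17, 12.03 and 12.54 and fell by 1.44 ± 0.25 (adjusted p = 8.66e-05). Tap1, a subunit of the peptide pump into the endoplasmic reticulum, read 8.87, 9.21 and 9.09 against 10.22, 10.06 and 10.57 and fell by 1.23 ± 0.19 (adjusted p = 1.46e-05). The light chain B2m moved least of those named, from 14.07, 13.89 and 14.05 in PBS gavage to 13.67, 13.76 and 13.72, a fall of 0.28 (adjusted p = 0.0028). H2 class I genes are close copies of each other, and signals may be shared among them.

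MHC class II genes, used by antigen-presenting cells, were lower in 5 of 10, with a median of -0.50. The count was 3 without jak12i replicate 1 and 3 without PBS gavage replicate 3. H2-Ab1, a class II beta chain, read 10.77, 11.07 and 11.32 in jak12i and 11.81, 11.39 and 11.69 in PBS gavage, narrowly separate, with a change of -0.58 ± 0.14 (1.49-fold lower, adjusted p = 0.00208). Ctss, the protease that trims the invariant chain, fell by 1.30 ± 0.30 (adjusted p = 0.00211), and Cd74, that chain, by 0.47 ± 0.16 (adjusted p = 0.0277). H2-Aa and H2-Eb1 had changes of -0.26 and -0.36 that did not pass.

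Chemokines and their receptors were lower in 16 of 20 and higher in 1, with a median of -1.29. The lower count was 11 without jak12i replicate 1 and 11 without PBS gavage replicate 3. Ccl17, a ligand of CCR4 made by dendritic cells, read 5.21, 6.36 and 6.14 in jak12i and 8.65, 8.59 and 9.18 in PBS gavage, separate by more than 2 log2 units, with a change of -2.90 ± 0.34 (7.49-fold lower, adjusted p = 2.63e-07). Cxcl11, the third CXCR3 ligand, read 6.51, 7.22 and 6.01 against 10.08, 9.79 and 10.95 and fell by 3.69 (adjusted p = 6.85e-07). The monocyte attractant Ccl2 read 7.1, 8.0 and 7.98 against 9.17, 8.78 and 10.41, a fall of 1.76 ± 0.32 (adjusted p = 0.000138), and its receptor Ccr2 fell by 1.37. Ccl27a, which keratinocytes make to draw skin-homing T cells, was the 1 that rose: 6.74, 6.92 and 7.1 against 6.47, 6.31 and 6.12, a change of 0.62 ± 0.15 (adjusted p = 0.00307). Cxcl12, Cxcl13 and Cxcl14 had changes of -0.24, 0.00 and -0.20 that did not pass.

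Of 7 genes of the gamma chain cytokine list tested 3 were lower, with a median of -0.68, and of 10 JAK and STAT genes 1 was, with a median of 0.05. Il2rb, the receptor chain shared by interleukin-2 and interleukin-15, read 5.84, 6.23 and 6.23 in jak12i and 7.25, 7.0 and 7.45 in PBS gavage, with no overlap and a change of -1.14 ± 0.15 (2.2-fold lower, adjusted p = 1.24e-06). Il15 itself read 8.21, 8.14 and 8.32 against 7.88, 8.1 and 8.23, overlapping, with a change of 0.15 (adjusted p = 0.573), and Il15ra had a change of -0.09 (adjusted p = 0.621). Il21r and Il4ra were lower, with changes of -0.68 (adjusted p = 0.00162) and -0.87 (adjusted p = 0.00385), the second of which missed the threshold without PBS gavage replicate 3 (adjusted p = 0.051). Il7r had a change of -0.84 that just missed the threshold (adjusted p = 0.0503). Among the 10 JAK and STAT genes of that list only Stat2, the partner of IRF9 in type I interferon signalling, passed. It read 6.7, 7.45 and 7.06 against 8.74, 8.67 and 9.53, a fall of 1.91 ± 0.23 (adjusted p = 5.2e-07). Jak1 read 10.98, 11.1 and 10.99 against 10.84, 10.77 and 10.95 (change 0.17, adjusted p = 0.298), and Jak2 10.05, 10.1 and 9.97 against 10.19, 10.04 and 10.31 (change -0.14, adjusted p = 0.22). Stat5a had a change of 0.28 (adjusted p = 0.34) and Stat3 one of -0.24 (adjusted p = 0.126). The count was 2 without jak12i replicate 2 and 2 without PBS gavage replicate 2. These are transcript levels, and kinase activity was not measured.

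Feedback targets of JAK signalling were mixed, with 3 of 11 lower and 2 higher. Socs1, the inhibitor that interferon gamma induces, read 5.57, 6.20 and 5.61 in jak12i and 6.4, 6.83 and 7.13 in PBS gavage, separate, with a change of -0.99 ± 0.17 (1.99-fold lower, adjusted p = 4.37e-05). Cish, a STAT5 target, read 9.22, 9.86 and 9.8 against 9.97, 9.94 and 9.82, with overlap and a change of -0.28 (adjusted p = 0.408), and Socs3 had one of -0.29. Pim2, a kinase of lymphocyte survival, was lower by 0.50 in the fit of all arrays (adjusted p = 0.0136) but not without jak12i replicate 1 or PBS gavage replicate 1 (adjusted p = 0.166 and 0.0654). The list had 1 lower gene without jak12i replicate 1. The risers, Bcl6 with a change of 0.52 and Il6ra with one of 0.62, both missed the threshold without PBS gavage replicate 3 (adjusted p = 0.176 and 0.117) and without jak12i replicate 2 (adjusted p = 0.0826 and 0.0551), and Bcl6 also without jak12i replicate 3 or PBS gavage replicate 2 (adjusted p = 0.139 and 0.0591).

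Single myeloid genes moved in both directions. Of 19 macrophage genes, 4 were lower and 1 higher, and of 9 dendritic and Langerhans cell genes, 2 were lower and 1 higher. Over all genes tested, 10.3% were lower and 11.6% higher, so the rises do not exceed that share in either list. The general macrophage markers Csf1r, Cd68 and Lyz2 had changes of 0.03, -0.27 and -0.02 that did not pass. Fcgr4, an activating receptor for antibodies, read 5.57, 6.46 and 6.31 in jak12i and 8.79, 7.96 and 9.15 in PBS gavage, separate, with a change of -2.52 ± 0.34 (5.75-fold lower, adjusted p = 2.66e-06). Aif1 fell by 1.49 (adjusted p = 0.0032). In contrast Cd163, a scavenger receptor of tissue macrophages, read 10.46, 9.86 and 10.5 against 9.5, 8.8 and 8.95 and rose by 1.19 ± 0.34 (adjusted p = 0.00944). Among dendritic cell genes, Itgax, the CD11c integrin, fell by 1.43 ± 0.20 (adjusted p = 3.81e-06), while Cd209a, a lectin of dermal dendritic cells, read 9.03, 8.8 and 9.09 against 7.46, 7.73 and 6.89 and rose by 1.61 ± 0.28 (3.05-fold, adjusted p = 9.4e-05). Cd207, the langerin of Langerhans cells, had a change of 0.41 that did not pass. None of 8 mast cell genes passed. Of 4 B cell genes, Mzb1 was lower by 1.19, and Jchain, the joining chain of secreted antibodies, had a change of -2.32 that did not pass (adjusted p = 0.0931). Of 7 neutrophil genes 3 were lower, Csf3r, Cxcr2 and Ngp, and none of these without jak12i replicate 2 or without PBS gavage replicate 1. The count was 1 without jak12i replicate 1, jak12i replicate 3 or PBS gavage replicate 3. Il1r2, the decoy receptor of interleukin-1, read 10.57, 11.35 and 11 in jak12i and 9.87, 9.89 and 9.88 in PBS gavage, separate, and rose by 1.09 ± 0.28 (adjusted p = 0.00426).

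Hair genes showed the lowest changes on the arrays. Of 16 hair shaft genes 13 were called lower and none higher, with a median of -3.27; of 12 inner root sheath genes 9 were lower, with a median of -3.91. Krt34, a keratin of the hair cortex, read 6.35, 5.87 and 5.66 in jak12i and 10.70, 9.65 and 12.42 in PBS gavage. The groups were separate, and PBS gavage replicate 3 was the highest array, with a change of -4.97 ± 1.36 (31.3-fold lower, adjusted p = 0.00773). Krt86, another hair keratin, read 5.37, 5.31 and 4.64 against 10.31, 9.07 and 12.03, a change of -5.36 ± 1.54 (at least 41.1-fold lower, adjusted p = 0.0109). Padi3, the enzyme that modifies trichohyalin in the follicle, read 6.14, 5.45 and 5.11 against 9.09, 9.41 and 10.26 and fell by 4.02 ± 0.96 (adjusted p = 0.00261). In the inner root sheath, the keratin Krt71 read 9.41, 7.34 and 6.58 against 11.68, 11.93 and 12.80, spread within jak12i across nearly 3 log2 units, and its change was -4.36 ± 1.21 (20.5-fold lower, adjusted p = 0.00847). Krt25 read 11.71, 8.48 and 5.63 against 13.07, 13.12 and 13.88. The groups were separate, jak12i spread across about 6 log2 units, and the change of -4.75 did not pass (adjusted p = 0.0701). Gata3, which directs the inner root sheath and is also a T cell factor, had a change of 0.31 that did not pass.

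The number of these hair calls leaned on 1 vehicle array. All jak12i arrays lay below all PBS gavage arrays in 15 of 16 hair shaft and 11 of 12 inner root sheath genes. Over all genes tested, 17.7% separated in that way. The errors rest on a spread shared over 13 groups, and hair shaft means ran from 6.31 to 10.32 within week 6 jak12i. The part of that spread in the lost calls was not tested. Without PBS gavage replicate 3, 1 hair shaft gene and none of the inner root sheath genes passed, and without jak12i replicate 3 the counts were 7 and 3. Without PBS gavage replicate 3 the changes themselves stayed large: Krt34 had -4.22 (adjusted p = 0.0659), Krt86 -4.58 (adjusted p = 0.0798) and Krt71 -4.03 (adjusted p = 0.0508). Krt71 also missed the threshold without jak12i replicate 3 (adjusted p = 0.0534). Averaged over the hair shaft list, the jak12i arrays read 6.93, 6.38 and 6.12 and the PBS gavage arrays 9.24, 8.93 and 10.69.

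Keratin-associated proteins fill the matrix between hair keratins, and 37 of their genes were described after the values had been seen, so the family is given with no test of its own. The median change was -4.33, and the array means were 5.49, 5.46 and 5.24 in jak12i against 9.45, 8.41 and 11.38 in PBS gavage. Krtap4-16 read 4.99, 5.12 and 4.60 against 11.26, 10.40 and 13.05, with the jak12i signals near background, and fell at least 101-fold (change -6.66 ± 1.59, adjusted p = 0.00256). Krtap6-5 read 4.84, 5.28 and 4.56 against 11.84, 9.76 and 12.91 and changed by -6.61 ± 1.89 (at least 97.6-fold, adjusted p = 0.0107). With the injury keratin Krt6b below, Krtap15, Krtap1-5, Gm11559, Krtap8-1, Krtap7-1, Krtap19-3 and Gm10229 completed the 10 lowest changes among called genes without overlap, from -6.12 to -5.65 for these 7. Krtap6-5, Krtap15, Krtap1-5, Gm11559, Krtap8-1, Krtap7-1, Krtap19-3 and Gm10229 did not pass without PBS gavage replicate 3, nor Krtap8-1 and Krtap19-3 without jak12i replicate 3. Members of this family are near-identical in places, so a probe set may read more than 1 of them.

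Signals of the hair matrix, the dividing base of a growing follicle, were lower in 6 of 17 and higher in 3. Without PBS gavage replicate 3 none of the 6 passed, without PBS gavage replicate 2 there were 2, and without jak12i replicate 3 there was 1. Shh, the sonic hedgehog signal of the matrix, read 8.32, 6.02 and 5.55 in jak12i and 7.43, 10.09 and 9.06 in PBS gavage, with overlap through jak12i replicate 1, and a change of -2.23 (adjusted p = 0.0495). The homeobox factors Msx2 and Dlx3 changed by -1.16 and -1.23, and both missed the threshold without jak12i replicate 3 or either of PBS gavage replicates 2 and 3 (Dlx3 adjusted p 0.0674, 0.091 and 0.0829). For Msx2 these adjusted p values were 0.0986, 0.0646 and 0.177, and Msx2 also missed the threshold without jak12i replicate 2 (adjusted p = 0.0644). Bmp2, a signal that holds follicles at rest, read 9.2, 10.16 and 10.4 against 8.96, 8.16 and 8.99 and rose by 1.22 ± 0.26 (adjusted p = 0.000747). Bmp4, of the same family, read 9.32, 9.37 and 9.46 against 8.58, 8.74 and 8.76, also separate, and rose by 0.69 ± 0.14 (adjusted p = 0.00058).

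Bulge genes were higher in 7 of 14 and lower in none, with a median of 0.66. Krt24 read 9.52, 10.02 and 10.25 in jak12i and 7.18, 6.54 and 7.07 in PBS gavage, separate by more than 2 log2 units, and rose by 3.00 ± 0.34 (7.99-fold, adjusted p = 1.36e-07). Krt15, the keratin used to mark bulge stem cells, read 13.5, 13.93 and 13.82 against 12.96, 12.21 and 12.16 and rose by 1.31 ± 0.19 (2.48-fold, adjusted p = 5.57e-06). Fgf18, a growth factor of resting follicles, read 8.52, 9.64 and 9.49 against 7.35, 6.25 and 5.68, separate, and rose by 2.79 ± 0.51 (6.9-fold, adjusted p = 0.000132). The stem cell factors Lhx2 and Nfatc1 rose by 1.06 ± 0.23 (adjusted p = 0.0011) and 0.82 ± 0.14 (adjusted p = 5.43e-05). Lgr5 and Sox9, which also mark cells of growing follicles, had changes of -0.09 and -0.13 that did not pass.

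Injury keratins and alarm proteins, which wounded or inflamed epidermis makes, were lower in 14 of 17 and higher in none, with a median of -2.10. Their relation to the hair genes was not tested. Krt6b, a keratin of this list, read 5.54, 6.75 and 5.89 in jak12i and 11.79, 12.09 and 12.92 in PBS gavage. The groups lay about 5 log2 units apart at their nearest, with a change of -6.21 ± 1.19 (73.8-fold lower, adjusted p = 0.000244). Krt16 read 7.41, 8.51 and 8.57 against 11.82, 11.29 and 12.22, separate, at -3.61 ± 0.62 (12.2-fold lower, adjusted p = 5.93e-05). Stfa3, a stefin that inhibits cysteine proteases, read 6.99, 8.37 and 7.6 against 11.11, 12.09 and 12.09 and fell 17.3-fold (adjusted p = 2.11e-05). Sprr1b, a cross-linked envelope protein, read 4.65, 4.92 and 6.02 against 9.26, 9.72 and 10.4, at least 24.1-fold lower (adjusted p = 0.000118). The alarm cytokine gene Il1f6, of the interleukin-1 family, read 5.85, 6.8 and 6.79 against 9.04, 9.21 and 9.03, separate, and fell by 2.61 ± 0.45 (6.1-fold, adjusted p = 6.68e-05). S100a8 and Lcn2, antimicrobial proteins, had changes of -1.52 (adjusted p = 0.205) and -1.30 that did not pass.

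In the cornified envelope list, of the outer epidermis, 6 of 23 genes were lower and 2 higher, with a median of -0.30. Flg, the filaggrin gene, read 10.01, 9.51 and 10.19 in jak12i and 11.33, 11.61 and 11.63 in PBS gavage, separate, and fell by 1.62 ± 0.30 (3.08-fold, adjusted p = 0.000148). Casp14, the caspase that processes filaggrin, fell by 1.62 ± 0.38 (adjusted p = 0.00231) and Lce1f by 1.70 ± 0.37 (adjusted p = 0.00115). Lor, the loricrin gene, did not pass. The 2 rises, Sbsn at 0.20 and Lce1m at 0.78, were both lost without jak12i replicate 2, without PBS gavage replicate 2 or without PBS gavage replicate 3.

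Cell cycle genes were lower in 20 of 23 and higher in none, with a median of -0.88. Plk1, a mitotic kinase, read 7.54, 8.25 and 7.78 in jak12i and 8.47, 9.37 and 9.28 in PBS gavage, narrowly separate, and fell by 1.18 (2.27-fold, adjusted p = 0.000104). Cdk1, the kinase that drives mitosis, read 8.35, 9.12 and 8.67 against 9.49, 10.25 and 10.07 and fell by 1.23 ± 0.30 (adjusted p = 0.00302). Mki67, a marker of dividing cells, read 9.62, 10.16 and 10.02 against 10.54, 11.38 and 11.09 and fell by 1.07 ± 0.33 (adjusted p = 0.0185). The count was 5 without PBS gavage replicate 3, 7 without PBS gavage replicate 2, 10 without jak12i replicate 1 and 12 without jak12i replicate 3. The list mean was 8.36, 8.75 and 8.57 in jak12i and 9.04, 9.76 and 9.59 in PBS gavage.

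**Figure D3:**
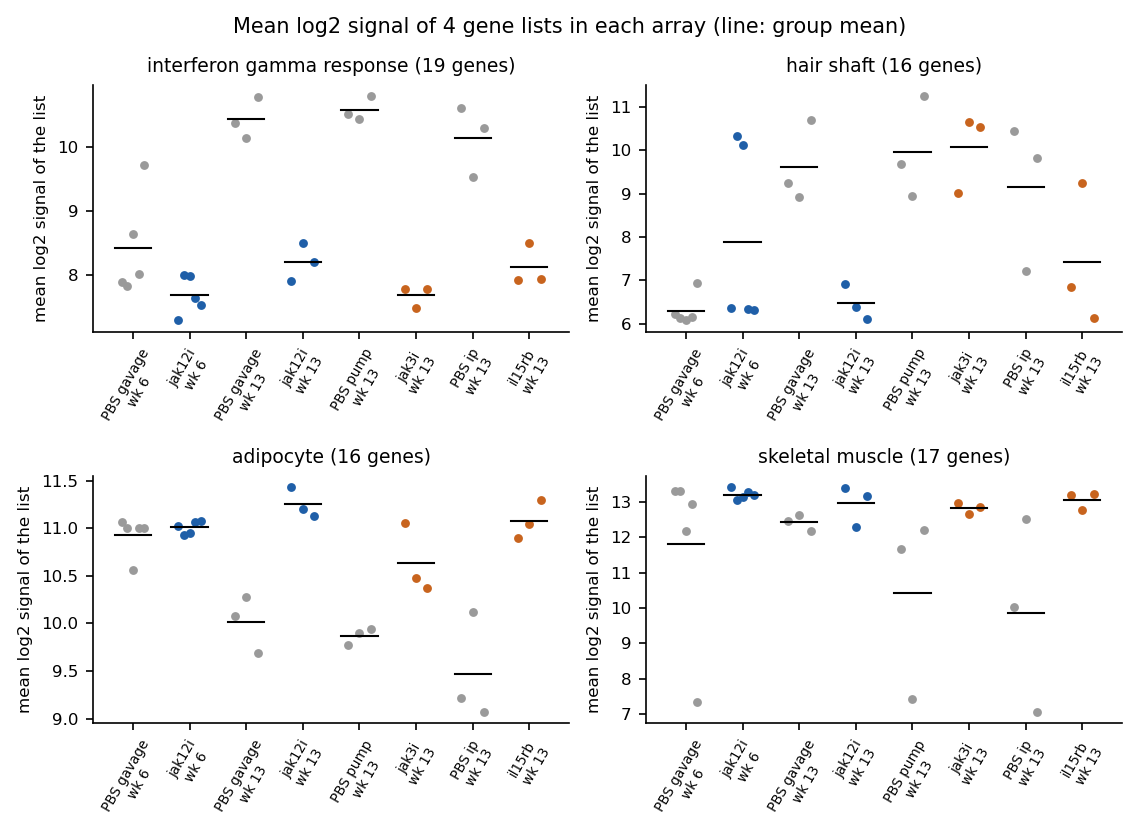
Mean log2 signal of 4 gene lists (y axis) in each array of 8 groups (x axis), 1 point an array and a line at the group mean, with jak12i in blue, PBS in grey and jak3i and il15rb in orange. Week 13 jak12i arrays read 6.12 to 6.93 for hair shaft, below the 8.93 to 10.69 of PBS gavage, and 11.13 to 11.43 for adipocyte genes, above its 9.69 to 10.28; skeletal muscle varied within groups.

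Fat cell genes gave more rises than any other list. Of 16 adipocyte genes, 14 were higher and none lower, with a median of 1.17; in 13 the jak12i arrays all lay above the PBS gavage arrays, as in 19.3% of all genes tested. Adipoq, the hormone adiponectin, read 13.28, 12.81 and 13.0 in jak12i and 10.9, 11.26 and 10.47 in PBS gavage, separate, and rose by 2.15 ± 0.27 (4.45-fold, adjusted p = 5.51e-07). Pck1, which supplies glycerol for stored fat, read 10.01, 10.22 and 10.27 against 7.38, 7.61 and 7.51, separate by more than 2 log2 units, and rose by 2.66 ± 0.38 (6.34-fold, adjusted p = 5.62e-06). Fabp4, a fatty acid carrier, rose by 0.83 ± 0.11 (adjusted p = 1.88e-06), Retn, the hormone resistin, by 1.5 ± 0.29 (adjusted p = 0.00026) and Pparg, the regulator of fat cell formation, by 1.0 ± 0.20 (adjusted p = 0.000565). Car3 and Cebpa had changes of 0.25 and 0.13 that did not pass.

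Sebaceous gland genes were higher in 6 of 12, with a median of 0.45, and in 3 without PBS gavage replicate 3. None was lower, or 1 without jak12i replicate 1. Scd3, a fatty acid desaturase of the gland, read 10.44, 11.03 and 10.52 in jak12i and 10.37, 8.35 and 8.12 in PBS gavage, where replicate 1 lay within 0.1 of jak12i, and rose by 1.71 ± 0.55 (adjusted p = 0.0234). Endothelial genes were higher in 8 of 12 and lower in 3. The 8 became 4 without PBS gavage replicate 3 and 5 without jak12i replicate 2. The vessel genes Kdr, a VEGF receptor, and Emcn, endomucin, rose by 0.88 ± 0.16 (adjusted p = 0.000131) and 1.09 ± 0.21 (adjusted p = 0.000276). Those that fell were Flt1, another VEGF receptor, which read 8.86, 8.94 and 8.96 against 9.88, 9.76 and 10.41 and fell by 1.10 ± 0.14 (adjusted p = 1.31e-06), and the adhesion molecules Icam1 and Vcam1, which inflammation induces on vessels, with changes of -0.77 (adjusted p = 0.00112) and -0.36. In the dermis, 2 of 21 matrix genes were lower: Cthrc1, a collagen-associated protein, read 6.21, 5.99 and 6.02 against 8.58, 8.54 and 7.0 (change -1.97 ± 0.46, adjusted p = 0.00208), and Tnc, the wound glycoprotein tenascin C, fell by 2.10 ± 0.46 (adjusted p = 0.00101). The matrix count lies near the 10.3% of all genes tested that were lower.

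Skeletal muscle genes mark the muscle sheet under mouse skin. None of the 17 passed, with array means of 13.41, 12.30 and 13.17 in jak12i and 12.46, 12.63 and 12.19 in PBS gavage and a median change of 0.50. Their part in the adipocyte and endothelial results was not tested. Melanocyte genes had a median of -0.55, with 1 of 9 called, Sox10 (change 0.57), which missed the threshold without jak12i replicate 2 or PBS gavage replicate 3. Without jak12i replicate 1, 2 of the 9 were higher, and without PBS gavage replicate 1, 2 were lower. Of 9 housekeeping genes 1 passed, Sdha, which rose by 0.57 and was lost without any 1 of 4 arrays, while Actb, Gapdh and Rplp0 had changes of -0.18, 0.11 and 0.00 that did not pass. A single housekeeping gene was lower without any 1 of the jak12i arrays or without PBS gavage replicate 1.

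**Figure D4:**
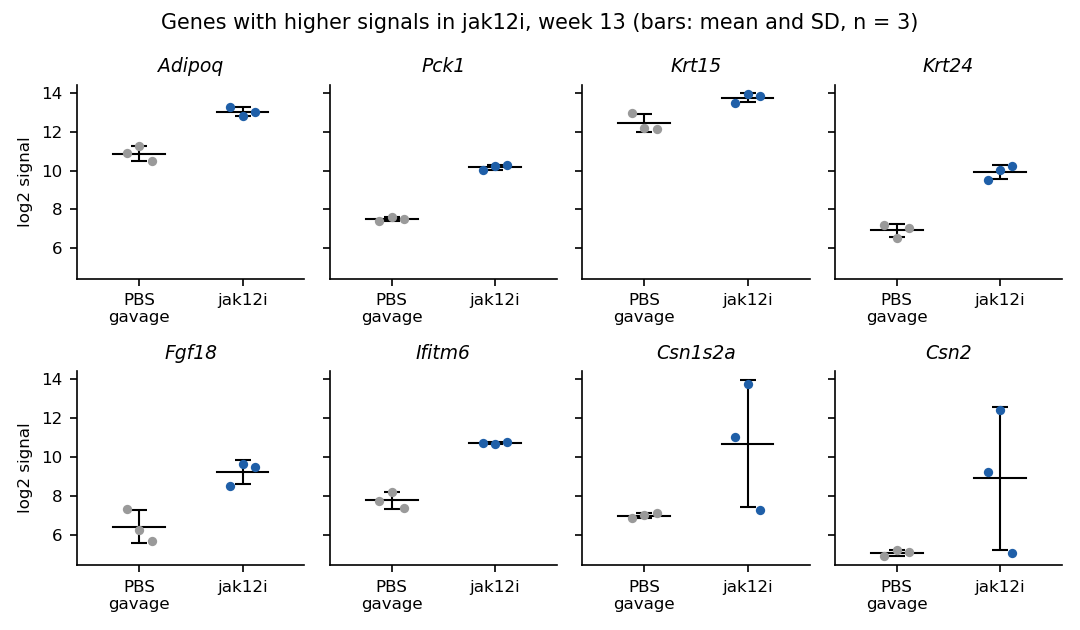
Log2 signal (y axis) of 8 genes with higher means in jak12i, in each of the 3 jak12i and 3 PBS gavage arrays of week 13, with bars for mean and SD (n = 3). Adipoq, Pck1, Krt15, Krt24, Fgf18 and Ifitm6 are separate between groups, whereas Csn1s2a and Csn2 are highest in jak12i replicate 2, at 13.76 and 12.41, and low in jak12i replicate 3.

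Milk protein genes stood among the largest rises, with wide spread within jak12i. Csn1s2a, a casein, read 11.05, 13.76 and 7.26 in jak12i and 6.85, 7.02 and 7.11 in PBS gavage, and Csn2, beta casein, 9.21, 12.41 and 5.08 against 4.90, 5.2 and 5.14. Replicate 2 was the highest jak12i array for both, replicate 3 lay at or within 0.2 of the vehicle, and the changes were 3.7 ± 0.84 (adjusted p = 0.00169) and 3.82 (adjusted p = 0.00421). Without jak12i replicate 2, Csn1s2a had a change of 2.16 (adjusted p = 0.0412) and Csn2 one of 2.07 (adjusted p = 0.0925). Csn1s2a also read 10.93 in jak3i replicate 2 and 10.50 in il15rb replicate 2, with 6.85 to 7.33 in every PBS array of week 13. This list, too, was chosen after the values had been seen. The errors and p-values of both caseins rest on a spread shared over 13 groups, not on the jak12i arrays alone. Csn1s2a spread far less within the PBS arrays of week 13 than within jak12i.

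Other large rises were separate between groups in every array. Ifitm6, a member of the interferon-induced transmembrane family, read 10.74, 10.67 and 10.75 in jak12i and 7.72, 8.21 and 7.37 in PBS gavage, separate by more than 2 log2 units, and rose by 2.95 (7.75-fold, adjusted p = 3.46e-06). Pon1, a lipoprotein-bound esterase, read 10.13, 9.22 and 8.84 against 6.31, 6.04 and 6.32 and rose by 3.17 (8.99-fold, adjusted p = 0.000369). Scgb1a1, a secretoglobin, read 9.33, 9.05 and 8.97 against 7.23, 6.62 and 5.13 and rose by 2.79 ± 0.39 (6.91-fold, adjusted p = 3.51e-06). Slc26a7, an anion transporter, rose by 2.84 ± 0.45 (7.14-fold, adjusted p = 2.2e-05) and Cyp2e1, a cytochrome P450, by 2.89 ± 0.55 (7.43-fold, adjusted p = 0.000214).

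In the interleukin-1 family list 4 of 12 genes were lower and 1 higher, with a median of -0.39. Il1f6 and Il1r2 are given above. Il1f8, an epidermal cytokine of the family, read 7.43, 7.47 and 7.46 in jak12i and 8.67, 9.1 and 9.26 in PBS gavage, separate, and fell by 1.56 ± 0.27 (adjusted p = 6.64e-05). Il18rap, a chain of the interleukin-18 receptor, fell by 0.77 ± 0.14 (adjusted p = 0.000165), and Il1b by 0.69 ± 0.23 with overlap (adjusted p = 0.0297). Of 12 complement and Fc receptor genes 2 were lower, Fcgr4 above and Fcgr1, which fell by 0.62 ± 0.15 (adjusted p = 0.00332). Of 5 erythroid genes Tfrc, the transferrin receptor, was the 1 called, falling by 0.58 ± 0.10 (adjusted p = 4.05e-05).

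Of 17 clock genes 2 were higher and 1 lower: Cry2, a repressor of the clock, rose by 0.67 ± 0.14 (adjusted p = 0.000588), Nr1d1 had 0.71 and Bhlhe40 -0.68, the last 2 lost without PBS gavage replicate 3 (adjusted p = 0.0825 and 0.135) and Nr1d1 also without jak12i replicate 1, jak12i replicate 2 or PBS gavage replicate 2. Of 14 glucocorticoid and metallothionein genes 3 were higher: Klf9, which rose by 0.97 ± 0.24 (adjusted p = 0.0035), Zbtb16 and Hif3a. Zbtb16 and Hif3a were each lost without any 1 of 4 arrays, while without jak12i replicate 1 the list had 5 rises. Of 15 integrated stress genes 2 were lower, Slc7a5, an amino acid transporter, by 1.02 ± 0.24 (adjusted p = 0.00251) and Mthfd2, a mitochondrial folate enzyme, by 0.75, and Mthfd2 missed the threshold without jak12i replicate 1 (adjusted p = 0.059). Over all genes tested, 11.6% were called higher and 10.3% lower, so the clock and integrated stress counts lie near or below these shares. H60c, the NKG2D ligand gene tested, had a change of -0.28 (adjusted p = 0.479).

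The change at week 13 was then set against that of the same agent at week 6, measured on 10 other arrays whose signals lay in a lower range, with upper quartiles of 8.22 to 8.35 against 8.73 to 8.76. The difference of the changes passed in 2204 genes, 759 lower at week 13 (5.56%) and 1445 higher (10.6%). For cytotoxic genes 6 of 14 differed and for the interferon gamma response 8 of 19, all toward a lower change at week 13; without jak12i replicate 1 of week 13 the second count was 5. Gzmb had changes of -3.75 ± 0.40 at week 13 and -0.30 ± 0.31 at week 6, which differed by -3.45 ± 0.51 (adjusted p = 3.32e-05). Its week 6 PBS gavage arrays read 6.53 to 7.67, so the vehicle was low at that time, and the week 13 jak12i arrays lay at 6.30 to 6.59. Adipoq read 12.58 to 13.21 in week 6 PBS gavage, beside the 12.81 to 13.28 of week 13 jak12i, and its changes differed by 2.05 ± 0.34. Jak1 had a change of 0.17 at week 13 and -0.34 ± 0.09 at week 6, a difference of 0.51 ± 0.14 (adjusted p = 0.0136). With week 6 jak12i replicates 2 and 3 and PBS gavage replicate 5 left out, Jak1 did not pass. No gene of the JAK and STAT list then differed toward a higher change. In MHC class II genes none differed toward a lower change and 2 toward a higher one, with list medians of -0.50 at week 13 and -0.60 at week 6; the 2 became 1 without jak12i replicate 2 of week 13 and 1 without week 6 jak12i replicates 2 and 3 and PBS gavage replicate 5.

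Hair lists had the lowest median differences between the weeks among the 39 lists. All 16 hair shaft genes and 11 of 12 inner root sheath genes had a lower change at week 13, with list medians of 1.56 and 1.76 at week 6 against -3.27 and -3.91. At week 6 the hair shaft mean was 6.37, 10.32, 10.11, 6.35 and 6.31 in jak12i replicates 1 to 5 and 6.08 to 6.94 in PBS gavage, so replicates 2 and 3 stood apart. Those replicates correlated at 0.996 over the genes tested, where no other pair in their group exceeded 0.988, and PBS gavage replicate 5 of week 6 had a muscle mean of 7.35, below the 12.18 to 13.31 of its group. With those 3 arrays left out, an alternative added after seeing the data, 1410 genes differed, among them 8 hair shaft genes, 7 inner root sheath genes, 11 of 17 injury genes, 7 interferon gamma response genes, 6 cytotoxic genes and 6 adipocyte genes. The keratin-associated median difference was -7.08 with all arrays and -4.48 without those 3. All arrays together gave 13 injury genes and 10 adipocyte genes, the latter 5 without PBS gavage replicate 3 of week 13. Inner root sheath genes numbered 6 without jak12i replicate 3 of week 13. Krt6b had a change of -6.21 at week 13 and 0.56 ± 0.92 at week 6, a difference of -6.77 ± 1.5 (adjusted p = 0.00232).

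**Figure D5:**
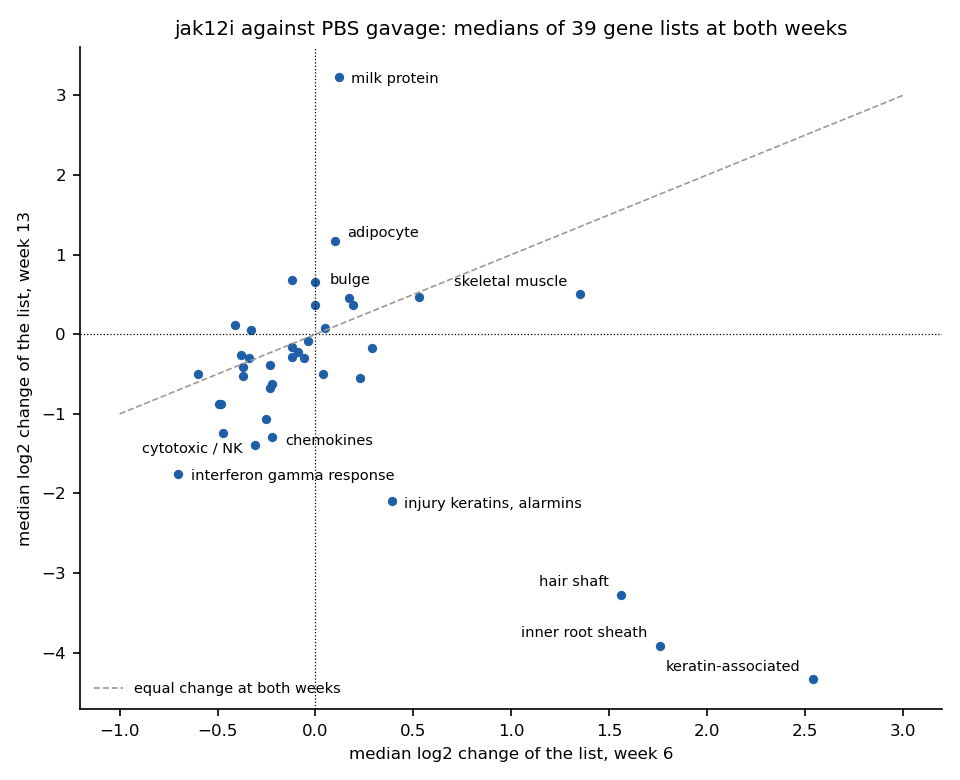
Median log2 change (jak12i minus PBS gavage) of 39 gene lists at week 6 (x axis) and week 13 (y axis), 1 point a list, with a dashed line where both would be equal. The hair shaft list lies at 1.56 and -3.27, the interferon gamma response at -0.70 and -1.75 and the adipocyte list at 0.10 and 1.17.

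Against the other agents of week 13, each set against its own vehicle, single genes passed. The change under jak12i differed from that under jak3i in 1 of 13648 genes (0.00733%), Cthrc1, with 899 genes at an unadjusted p under 0.05. Cthrc1 read 8.49, 7.90 and 10.04 in jak3i and 7.07, 6.43 and 6.24 in PBS pump, a rise of 2.23 ± 0.46, so that the 2 changes differed by -4.20 ± 0.65 (adjusted p = 0.00199). No gene passed, Cthrc1 included, in a fit of the week 13 arrays only or of these 4 groups only. From il15rb the change differed in 1 gene (0.00733%), Arnt2, a partner of bHLH-PAS transcription factors, with 848 genes at an unadjusted p under 0.05. Arnt2 read 6.85, 7.2 and 7.11 in jak12i against 6.93, 6.87 and 6.86 in PBS gavage, and 6.62, 6.74 and 6.37 in il15rb against 7.14, 7.73 and 7.56 in PBS ip. Its changes differed by 1.07 ± 0.18 (adjusted p = 0.0144), and it too was lost in fits of the week 13 arrays or of its 4 groups only. Without il15rb replicate 3 no gene passed, whereas without PBS ip replicate 2 there were 69.

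The muscle mean was 7.43 in PBS pump replicate 2 and 7.06 in PBS ip replicate 3, and its part in these differences was not tested. Few differences passing does not show that the agents act alike, since their errors were wide. The Gzmb change was -3.75 under jak12i, -4.67 under jak3i and -3.45 under il15rb, and the differences were 0.93 ± 0.57 and -0.29 ± 0.57 (SE, adjusted p = 0.845 and 0.951). Cxcl9 changes were -4.46, -5.45 and -4.39, with differences of 0.99 ± 1.04 and -0.07 ± 1.04. Mx1, the antiviral GTPase, had changes of -1.48, -2.19 and -0.37, with differences of 0.71 ± 0.39 and -1.11 ± 0.39 (adjusted p = 0.797 and 0.687). Hair genes had wide gaps in values: the hair shaft median was -3.27 under jak12i, 0.15 under jak3i and -1.68 under il15rb, and Krt34 had changes of -4.97, 0.08 and -2.97, with differences of -5.04 ± 1.92 and -1.99 ± 1.92 that did not pass (adjusted p = 0.642 and 0.893). The hair shaft mean of single arrays ran from 9.02 to 10.64 in jak3i and was 6.86, 9.25 and 6.14 in il15rb, beside 6.12 to 6.93 in jak12i. For adipocyte genes the medians were 1.17, 0.66 and 1.57, and Adipoq differed by 0.86 ± 0.38 and -0.14 ± 0.38 (adjusted p = 0.704 and 0.966).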

How the data were processed

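Total RNA from mouse skin was hybridised to 48 Affymetrix mouse genome arrays; the deposited values are log2 signals for which the submitters' processing notes name RMA without a version, and whether all arrays were normalized together is not given in the sources used here. The labels record Qiagen miRNeasy extraction with DNase and the 3' IVT Express Kit. Array titles and treatment labels gave the groups; 1 array with conflicting labels was left out, so 47 arrays in 13 groups entered the fit, and no column of another series was present (0 unused columns).

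From the deposited log2 values, 45101 probe sets were named through GEO's platform annotation, updated through Entrez identifiers to RefSeq symbols: 34958 had 1 symbol, 932 several and 9211 none. The probe set of highest mean stood for each of 18194 genes, and 13648 genes with a signal above 6.70, the median of the table, in at least 3 arrays were tested. limma 3.58.1 in R 4.3.3 (lmFit, eBayes, 1 mean per group, 34 residual degrees of freedom) gave changes with standard errors, with the Benjamini-Hochberg adjustment of p-values taken over all genes tested and a threshold of 0.05. The script was tested on simulated data. The labels do not name animals, so p-values measure the spread between arrays called biological replicates by the submitters. Precision is limited by 3 arrays a group, and array files give no counting depth.

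Named genes were a fixed panel, the 10 largest rises and falls among called genes without overlap, in each list the 4 or fewer genes with the smallest p, and the 3 largest differences of effects each way; members described one by one are named whether or not they passed. The comparison and the lists were chosen with earlier results of these data known, and the keratin-associated and milk protein lists after the values were seen. 1 panel gene is not reported here. Alternatives covered normalization, filter, probe set rule, prior, arrays in the fit, replicate block, control group and leaving out each array.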

Additional observations from a re-analysis of the deposited data

Results flagged for a closer look

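The change of jak12i against PBS gavage differed between week 13 and week 6, by a limma test of the difference itself, in 30 genes out of the panel, the 10 largest rises and falls and the largest differences of effects; the value is the week 13 change minus the week 6 change on the log2 scale. Lower changes at week 13 were found for immune genes: Cd8a -1.80 (adjusted p = 2.2e-05), Gzmb -3.45 (3.32e-05), Klrk1 -1.53 (0.00148), Ifng -1.76 (0.000416), Cxcl9 -2.81 (0.0342), Cxcl10 -3.21 (0.000389), Il2rb -1.01 (0.000412) and Socs1 -1.06 (0.000784). For some of these the week 6 vehicle already lay near the background value of 5.38, so a fall at week 6 could hardly be measured. Week 6 PBS gavage read 4.62 to 5.27 for Ifng, 5.18 to 5.99 for Klrk1 and 5.29 to 5.73 for Socs1. Cd8a read 8.20 to 8.81 there. Hair and injury genes had the lowest differences: Krtap6-5 -9.51 (0.00597), Krtap4-16 -9.35 (0.0018), Krtap15 -9.29 (0.00566), Krtap1-5 -8.97 (0.00513), Krtap19-3 -8.80 (0.00657), Krtap8-1 -8.73 (0.00675), Gm11559 -8.71 (0.00534), Krtap7-1 -8.63 (0.00521), Gm10229 -8.35 (0.00573) and Krt6b -6.77 (0.00232). The dermal gene Cthrc1 differed by -2.16 (0.00924). Over 37 keratin-associated genes the median difference was -7.08, and -4.48 without week 6 jak12i replicates 2 and 3 and week 6 PBS gavage replicate 5.

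Higher changes at week 13 were found for Krt24, 3.00 (adjusted p = 2.52e-05), Fgf18, 3.16 (0.00101), Pck1, 1.67 (0.016), Ifitm6, 2.83 (0.000383), Pon1, 2.22 (0.0497), Scgb1a1, 2.64 (0.00044), Slc26a7, 3.02 (0.000492), Cyp2g1, 3.20 (0.0327), Csn1s2a, 3.68 (0.0159), Csn2, 3.74 (0.0327) and Jak1, 0.51 (0.0136). Without jak12i replicate 2 of week 13 no milk protein gene differed between the weeks. Jak1 did not pass with week 6 jak12i replicates 2 and 3 and week 6 PBS gavage replicate 5 left out. At week 13, the jak12i change differed from that of jak3i in Cthrc1, by -4.20 (0.00199), and from that of il15rb in Arnt2, by 1.07 (0.0144).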

How the results depend on the processing

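The number of genes called for jak12i against PBS gavage at week 13, 2986, lay between 2065 and 3079 with quantile normalization, array medians subtracted, no filter, a filter above 8, the mean of probe sets, a trend and robust prior, or week 13 arrays only. It moved to 1906 with only the 2 groups, 4556 with PBS pump of week 13 as the control, 4319 with PBS ip, 5271 with PBS of all routes, and 1448 to 2845 with each array left out. The difference from week 6, 2204 genes, was 1091 to 2425 with each array left out and 1410 without week 6 jak12i replicates 2 and 3 and week 6 PBS gavage replicate 5. Against jak3i the 1 gene became 2 with quantile normalization, 4 with no filter, 3 with the mean of probe sets, and 0 with week 13 arrays only or only the groups compared, and 1 to 13 with each array left out. Against il15rb the 1 gene became 0 with quantile normalization, the filter above 8, the mean of probe sets, week 13 arrays only or only the groups compared, and 0 to 69 with each array left out. The cause was not tested. With a replicate block the counts were 2718, 1951, 1 and 1; same-numbered arrays did not deviate together (correlations of -0.16, -0.18 and -0.14), so the numbers were not taken as pairs. Of 132 called named genes, 92 stayed past the threshold with the same sign in every setting run for them, 40 missed it in at least 1, and none reversed. The settings run for named genes included quantile normalization, PBS of all routes as the control and leaving out each array compared. They did not include every alternative above. Of 39 list medians, 13 moved beyond their spread in some setting, and 2 changed sign: neutrophil from 0.08 to -0.19 without jak12i replicate 2, and dermal matrix from -0.26 to 0.05 with PBS of all routes.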
